A study of Mus musculus with 9 samples.

Results

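The integrin chains that attach cells to the extracellular matrix were followed in 10 genes, chosen by name as the rows of Itga1, Itga2, Itga4, Itga5, Itga8, Itga10, Itga11, Itgav, Itgb1 and Itgb5 among 40548 genes. All 10 were measured in all 9 libraries, and all 10 passed the filter on low values for the test of day 7 against day 0, together with 12712 genes in all. The libraries were made from calvarial cells, isolated from the skull vault of mouse pups aged 2 to 3 days after birth. The strain was C57BL/6 by the sample records and C57BL/6J by the methods. Cells were grown to confluence and collected either undifferentiated (day 0) or after 4 or 7 days in a mineralization medium (β-glycerol phosphate plus ascorbic acid), with 3 libraries at each stage. The sample records give no transgene, whereas the methods name wild type and ColI-GFP pups as sources of calvarial cells without saying which were sequenced. The culture was a mixed primary population and not a single clone, and fewer cells of a type and less RNA per cell cannot be told apart in bulk RNA. Before trypsin, collagenase I was used on cells that had mineralized according to the records, and on cells of days 4 and 7, for longer at day 7, according to the methods, so stage and the release of the cells from their matrix cannot be told apart. The methods call the libraries of a stage biological replicates, whereas the records do not say that they came from separate cultures, so p-values measure the spread between these libraries.

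An integrin is a receptor made of 1 alpha and 1 beta chain, and the pair of chains decides which matrix protein is bound outside the cell, while the beta chain connects to talin, kindlin and actin inside. The chains of Itga1, Itga2, Itga10 and Itga11 bind collagen, those of Itga5, Itga8 and Itgav bind proteins with an Arg-Gly-Asp (RGD) motif such as fibronectin and vitronectin, and that of Itga4 binds fibronectin and the adhesion molecule VCAM1 through a Leu-Asp-Val-like (LDV) motif. Itgb1 encodes the beta chain shared by all of these alpha chains, and Itgb5 encodes a beta chain that pairs with the Itgav product. In bone, osteoblasts deposit type I collagen together with RGD proteins such as bone sialoprotein and osteopontin, and they adhere to both.

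Reads on genes numbered 7741204 to 14013219 at day 0, 32820610 to 37306090 at day 4 and 10675858 to 15622755 at day 7. In day 0 replicate 3 and day 7 replicate 2, 11.97% and 8.12% of the CPM lay on 1 transcript, Gm42418, and 80.1% and 85.1% on protein-coding genes, against 91.5 to 95.2% in the other 7 libraries. In day 7 replicate 3, the library with 95.2%, 7.95% of the CPM lay on 1 gene, Plekhh2. Of 8 osteoblast markers, 7 were higher at day 7 by the test of the integrins (where 12.6% of genes were), and their summed RPKM was 1801 to 2515 at day 0 and 8042 to 10135 at day 7. The 6 endothelial markers summed to at most 0.459 RPKM in any library, with Emcn and Tie1 listed at 0. Of 7 smooth muscle and pericyte markers, 3 were higher and 2 lower (12.6% and 18.6% of all genes tested). Of 11 genes of dissociation and the immediate early response, 4 were higher and 1 lower, and of 8 proliferation genes 6 were lower. The part of these differences in the integrin values was not tested.

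Between day 0 and day 7 the integrins moved in both directions. Itga10 and Itga4 were higher at day 7, Itga1, Itga11, Itgav and Itgb5 were lower, and Itga2, Itga5, Itga8 and Itgb1 did not pass the test. The 6 of 10 that passed compare with 31.2% of the 12712 genes tested, the 2 higher with 12.6% and the 4 lower with 18.6% (limma, Benjamini-Hochberg adjusted p below 0.05 over all genes). The median log2 fold change of the 10 was −0.39, against −0.11 for all genes tested. The test used log2(CPM + 0.5), where CPM are reads scaled to the library's total on genes, so the fold changes of low genes are understated. Levels are given as RPKM, which are CPM per kilobase of gene model, so that genes of different length can be compared.

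**Figure D1:**
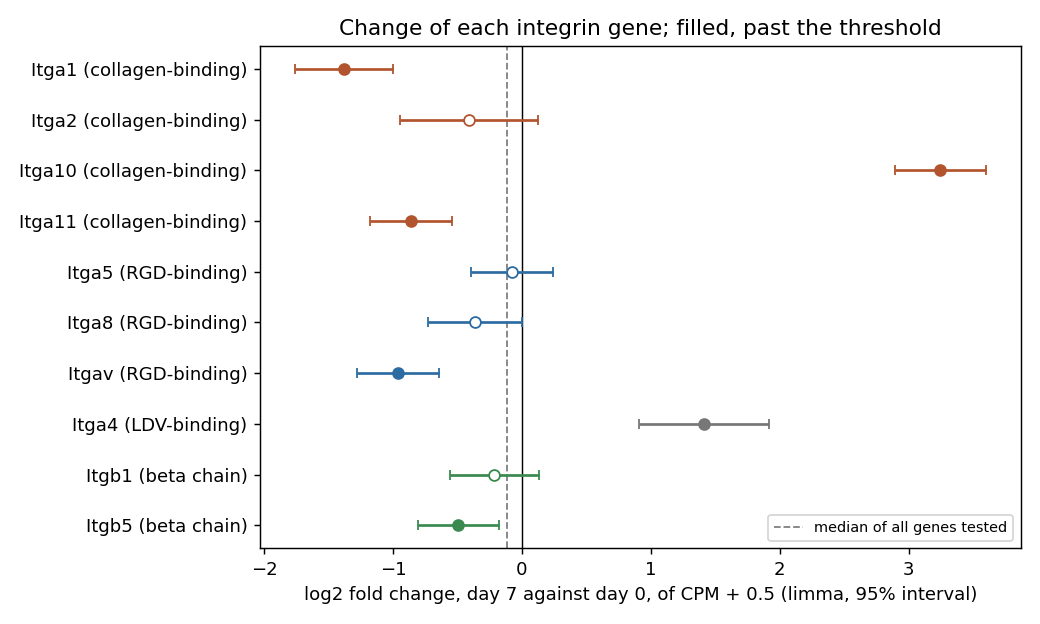
Change of the 10 integrin genes between day 0 and day 7, as the log2 fold change of CPM + 0.5 with its 95% interval from limma (3 libraries per stage). Filled points passed the adjusted p of 0.05 and the dashed line marks the median of all genes tested (−0.11). Itga10 stands at 3.25 and Itga4 at 1.41, whereas every other point lies below 0.

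The stretches just upstream of the genes are shown for the 5 members that passed the test in all 18 fits tried, with the members that were higher first, so that the start of each gene can be read beside its change. They come from RefSeq (assembly GRCm38.p6, the build that the submitters' processing notes also name), which had an entry for all 10 members, and they are written 5′ to 3′ on the strand of the gene and end at the base before its first exon. They cover chr3:96645384-96645583 (plus strand) for Itga10, chr2:79255226-79255425 (plus) for Itga4, chr9:62677655-62677825 (plus) for Itga11, chr2:83724197-83724396 (plus) for Itgav and chr13:115101965-115102164 (minus) for Itga1. Capitals mark matches on either strand to the motifs named after the sequences.
Itga10: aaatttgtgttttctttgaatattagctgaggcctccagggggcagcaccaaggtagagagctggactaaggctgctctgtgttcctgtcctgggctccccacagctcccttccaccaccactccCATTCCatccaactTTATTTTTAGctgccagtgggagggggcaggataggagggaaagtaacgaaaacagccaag
Itga4: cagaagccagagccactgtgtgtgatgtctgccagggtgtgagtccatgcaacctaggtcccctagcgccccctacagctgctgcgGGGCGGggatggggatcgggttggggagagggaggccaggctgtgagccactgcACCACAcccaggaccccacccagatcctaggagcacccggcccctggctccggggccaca
Itga11: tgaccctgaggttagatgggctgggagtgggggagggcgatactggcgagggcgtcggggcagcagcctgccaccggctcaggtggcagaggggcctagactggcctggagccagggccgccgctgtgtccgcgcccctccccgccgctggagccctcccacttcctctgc
Itgav: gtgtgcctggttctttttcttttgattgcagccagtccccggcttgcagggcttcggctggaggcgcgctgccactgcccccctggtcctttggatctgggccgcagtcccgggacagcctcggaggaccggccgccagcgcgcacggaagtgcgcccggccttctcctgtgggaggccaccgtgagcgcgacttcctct
Itga1: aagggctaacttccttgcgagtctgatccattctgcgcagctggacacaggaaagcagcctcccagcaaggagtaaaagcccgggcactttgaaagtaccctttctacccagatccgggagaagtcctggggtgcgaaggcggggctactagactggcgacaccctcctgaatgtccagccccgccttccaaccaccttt
The motifs were the GC box (GGGCGG), RUNX (TGTGGT), TEAD (GGAATG), AP-1 (TGANTCA), the TATA box (TATAAA) and MEF2, and they were chosen after the sequences had been seen. The search covered 200 bases before the RefSeq start of every gene, of which 171 are printed for Itga11 because the rest is exonic in GENCODE M21. Itga10 held a TEAD match 75 bases and a MEF2 match 61 bases before the start, where 10.1% and 2.29% of the 32851 windows of all genes held one. Itga4 held a GC box at 114 bases and a RUNX match at 60 bases, motifs present in 31.0% and 11.2% of all windows. The windows of Itga11, Itgav and Itga1, the 3 alpha chains that fell, held no match to these 6 motifs. Those of Itga2 and Itga8, which did not pass the test, held none either. Of the other members, Itga5, Itgb1 and Itgb5, which was lower at day 7, held GC boxes and Itgb1 a TEAD match. Because the motifs were chosen with the sequences known, the matches cannot be set against the direction of change. No match of 1 motif overlapped that of another, AP-1 (5.48% of all windows) and the TATA box (9.96%) were matched in none of the 10 members, and a match is a description of letters only.

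The level of every member is shown by library, and replicates are given in the order 1, 2 and 3 throughout. Itga10 (ENSMUSG00000090210, chr3:96645584-96664519, plus strand), a collagen receptor chain best known from cartilage, showed the largest rise. Its RPKM was 1.98, 1.82 and 1.22 at day 0, 10.9, 11.9 and 11.4 at day 4, and 17.0, 15.3 and 16.9 at day 7. The 3 stages did not overlap, and each later stage lay above the one before. The mean at day 7 was 9.79 times that at day 0, and the log2 fold change was 3.25 (SE 0.18, 95% interval 2.89 to 3.60, limma adjusted p = 7.05e-21). Of all genes tested, 101 had a larger log2 fold change. The exact two-sided permutation test gave 0.1, the smallest p that 3 libraries against 3 allow, for Itga10 as for each of the other 5 called members. The counts behind Itga10 were 49 to 144 reads at day 0, 1850 to 2301 at day 4 and 849 to 1368 at day 7. In the GENCODE M21 annotation, 33.5% of the exonic bases of Itga10 are shared with another gene annotated on the same strand. The methods name an Ensembl release instead and a count of unambiguous reads only. What this overlap did to the Itga10 reads is therefore not known. The summed RPKM of 8 chondrocyte markers was 166 to 474 at day 0, 52.3 to 173 at day 4 and 44.4 to 127 at day 7. Of the 6 tested markers, 1 was higher at day 7 (Acan, in 11 of 18 fits) and 4 lower, against 12.6% and 18.6% of all genes tested. The part of the chondrocyte markers in the Itga10 values was not tested.

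**Figure D2:**
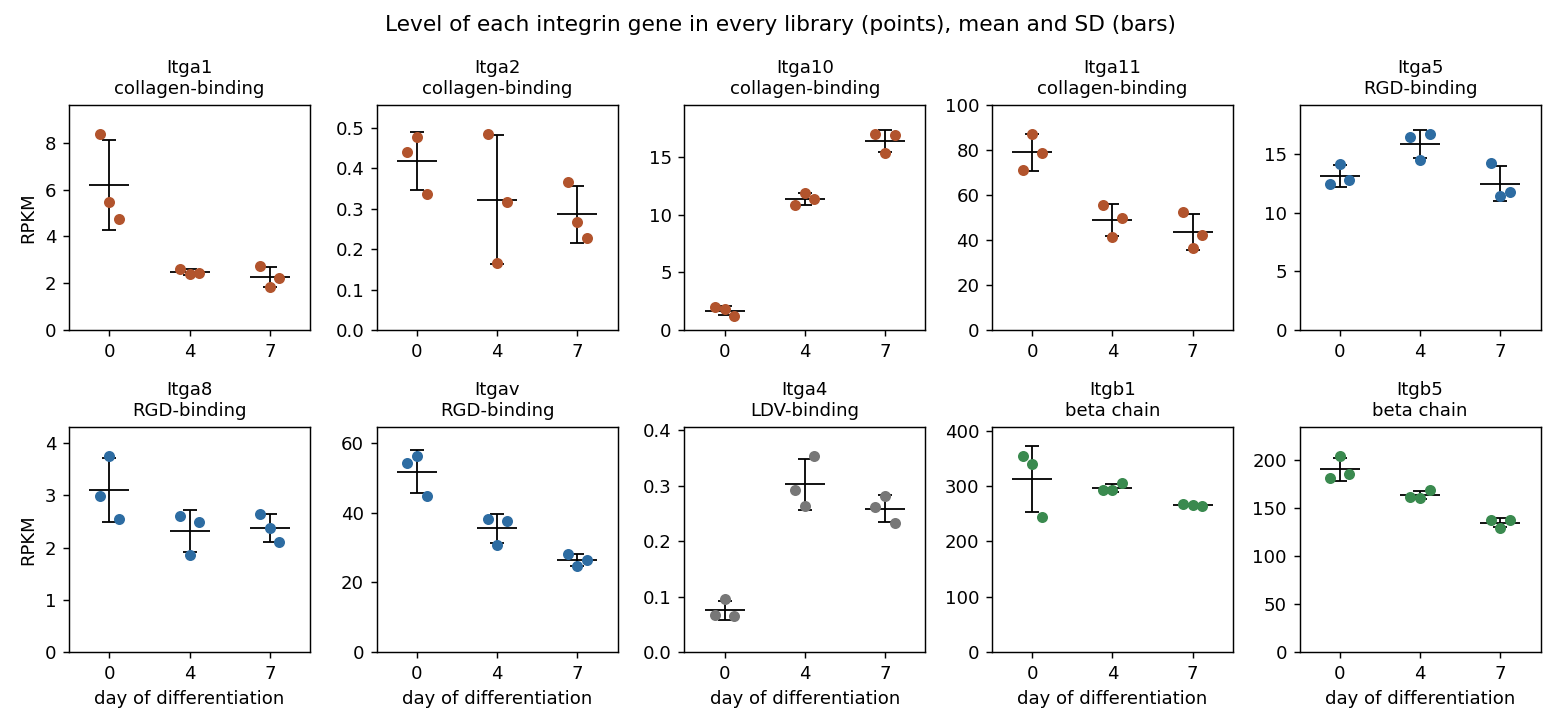
Level of the 10 integrin genes in RPKM (vertical axes, from 0) at days 0, 4 and 7 of differentiation (horizontal axes). Points are libraries, and the bars give the mean and SD of 3 libraries; Itga10 has a higher mean at each later stage and 6 genes (Itga1, Itga2, Itga11, Itgav, Itgb1 and Itgb5) have a lower mean at each later stage.

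Itga11 (ENSMUSG00000032243, chr9:62677826-62783982, plus strand), the mesenchymal receptor chain for fibrillar collagen, was the most abundant alpha chain at every stage and fell. It had 70.9, 87.0 and 78.6 RPKM at day 0, 55.4, 41.1 and 49.7 at day 4, and 52.4, 36.6 and 42.1 at day 7. Every day 0 library lay above every later one, while days 4 and 7 overlapped. The log2 fold change from day 0 to day 7 was −0.86 (SE 0.16, adjusted p = 2.49e-05), and the day 0 mean was 1.80 times that of day 7. Itga1 (ENSMUSG00000042284, chr13:114953096-115101964, minus strand), which prefers basement membrane collagen, fell as well. Its RPKM was 8.37, 5.46 and 4.73 at day 0, 2.62, 2.39 and 2.43 at day 4, and 2.73, 1.86 and 2.24 at day 7. Replicate 1 was the highest at day 0, and all 3 day 0 libraries stood above days 4 and 7, which overlapped. The log2 fold change was −1.38 (SE 0.19, adjusted p = 5.94e-08), and 219 genes had a lower one. Its mean was 2.48 ± 0.12 RPKM (SD, n = 3) at day 4 against 2.28 ± 0.434 at day 7. Itga2 (ENSMUSG00000015533, chr13:114833081-114932100, minus strand), whose gene lies beside Itga1, was near the limit of what these depths can follow, with 11 to 26 reads at day 0, 26 to 67 at day 4 and 12 to 21 at day 7. It had 0.440, 0.476 and 0.337 RPKM at day 0 and 0.365, 0.267 and 0.228 at day 7, and the stages overlapped (log2 fold change −0.41, 95% interval −0.95 to 0.13, adjusted p = 0.253). Relative to its mean, Itga2 was spread the most of any member at any stage at day 4 (coefficient of variation 49.6%), with 0.484, 0.165 and 0.316 RPKM.

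Among the RGD-binding chains, Itgav fell whereas Itga5 and Itga8 did not pass the test. Itgav (ENSMUSG00000027087, chr2:83724397-83806916, plus strand) encodes the alpha chain of the vitronectin and osteopontin receptors. It had 54.1, 56.2 and 44.6 RPKM at day 0, 38.1, 30.7 and 37.7 at day 4, and 28.0, 24.7 and 26.5 at day 7. The 3 stages did not overlap, each lying below the one before. The log2 fold change was −0.96 (SE 0.16, adjusted p = 2.45e-06), with 2834 to 8155 reads per library at days 0 and 7. Itga5 (ENSMUSG00000000555, chr15:103344286-103366763, minus strand), the alpha chain of the classical fibronectin receptor, had 12.4, 14.1 and 12.8 RPKM at day 0 and 14.2, 11.4 and 11.8 at day 7. These stages overlapped, and the log2 fold change of −0.08 had a 95% interval of −0.39 to 0.24 (adjusted p = 0.759). Its sign depended on the scaling of the libraries, with 0.030 after median-of-ratios scaling. At day 4 Itga5 had 16.4, 14.5 and 16.7 RPKM, above every library of day 0 and of day 7, and no other member had its day 4 libraries above those of both other stages. The summed RPKM of 11 genes of dissociation and the immediate early response was also highest at day 4, with 269 to 319, against 117 to 148 at day 0 and 173 to 235 at day 7, and their part in the Itga5 values was not tested. Itga8 (ENSMUSG00000026768, chr2:12106632-12301922, minus strand), a receptor chain for nephronectin and fibronectin, had 2.99, 3.75 and 2.54 RPKM at day 0, 2.60, 1.85 and 2.49 at day 4, and 2.64, 2.37 and 2.10 at day 7. All stages overlapped and the log2 fold change was −0.36 (95% interval −0.72 to −0.0010, adjusted p = 0.123). Without day 0 replicate 3, Itga8 passed at −0.49 (adjusted p = 0.0136). Over all genes, the median log2 fold change of that fit was −0.23, against −0.11 with every library.

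Itga4 (ENSMUSG00000027009, chr2:79255426-79333123, plus strand), an alpha chain found mainly on leukocytes and on some progenitor cells, had the lowest mean RPKM of the members at every stage, overlapping Itga2 at days 4 and 7, and rose. It had 13, 16 and 7 reads at day 0, 134, 137 and 178 at day 4, and 50, 42 and 51 at day 7, all above a floor of 3 reads that was set for detection and covers counting error only. In RPKM these were 0.0663, 0.0957 and 0.0647 at day 0, 0.292, 0.263 and 0.353 at day 4, and 0.262, 0.281 and 0.233 at day 7. Days 4 and 7 overlapped and both stood above day 0. The mean RPKM at day 7 was 3.43 times that at day 0, the log2 fold change was 1.41 (SE 0.25, adjusted p = 1.26e-05), and 467 genes had a larger one. Because the pseudocount is large against such low values, the log2 fold change ran from 0.40 on the RPKM table to 1.90 with DESeq2 on the recovered reads, and it passed in all 18 fits. In GENCODE M21, 8.04% of the exonic bases of Itga4 overlap exons of a gene on the opposite strand. Smaller overlaps, 3.68 to 5.90%, are annotated for Itga1, Itga8 and Itgav. What these overlaps did to the reads is not known. Of 10 macrophage and leukocyte markers, 9 were higher at day 7, against 12.6% of all genes tested. The summed RPKM of the 10 was 49.6 to 82.5 at day 0, 96.2 to 109 at day 4 and 96.5 to 128 at day 7. The part of these cells in the Itga4 values was not tested.

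The beta chains were the most abundant members. Itgb1 (ENSMUSG00000025809, chr8:128685654-128733200, plus strand) had 354, 340 and 245 RPKM at day 0, 292, 293 and 305 at day 4, and 267, 267 and 264 at day 7. Day 0 replicate 3 was the lowest of all 9 libraries, so day 0 overlapped both later stages, whereas day 7 lay below day 4. Itgb1 did not pass with all 6 libraries (log2 fold change −0.22, 95% interval −0.56 to 0.13, adjusted p = 0.364), and without day 0 replicate 3 it passed at −0.38 (adjusted p = 0.00779). That fit called 4696 of 12712 genes lower, with a median log2 fold change of −0.23, against 2369 and −0.11 with all 6 libraries. Itgb5 (ENSMUSG00000022817, chr16:33829665-33949338, plus strand) had 181, 204 and 186 RPKM at day 0, 162, 160 and 168 at day 4, and 138, 130 and 137 at day 7. The 3 stages did not overlap, each below the one before. The log2 fold change was −0.49 (SE 0.16, adjusted p = 0.0124). The call of Itgb5 was lost without day 0 replicate 2 (adjusted p = 0.0828), day 7 replicate 2 (0.07) or day 7 replicate 3 (0.0683).

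The plot of the 18 fits sets these calls beside each other. The fits differed in pseudocount, filter, scaling, unit, test and the libraries used. In all of them Itga10 and Itga4 were higher and Itga1, Itga11, Itgav and Itgb5 had a negative log2 fold change, and for Itgb5 that ran from −0.55 to −0.38.

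**Figure D3:**
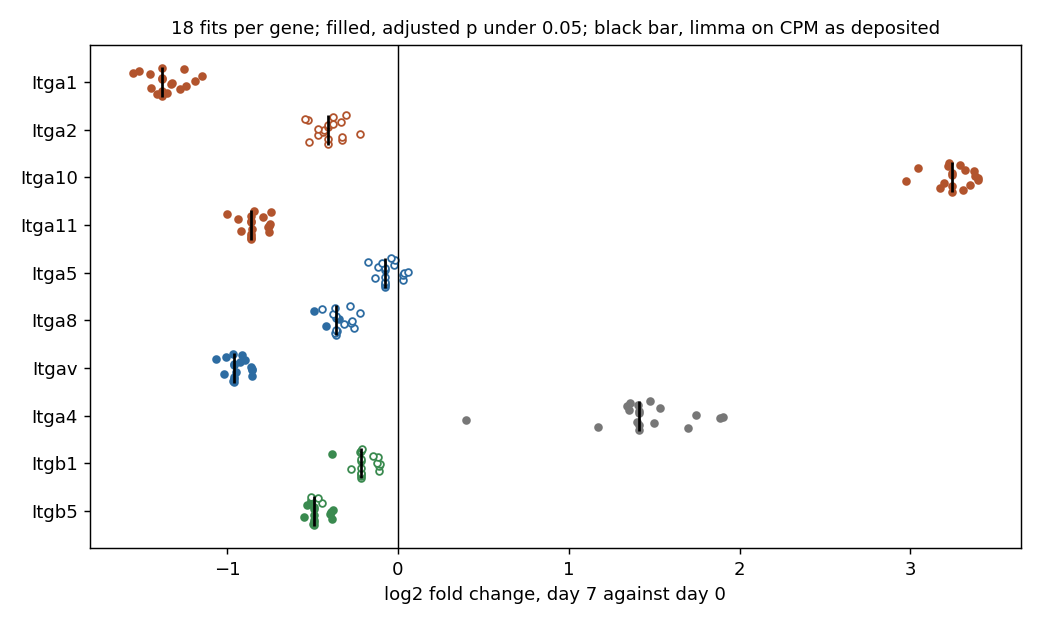
Log2 fold change of the 10 integrin genes between day 0 and day 7 in each of 18 fits, spread vertically within a gene. Filled points passed an adjusted p of 0.05 and the black bar is limma on the CPM as deposited; Itga1, Itga10, Itga11, Itgav and Itga4 passed in all 18 fits, Itgb5 in 15, Itga8 in 3 and Itgb1 in 1.

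Day 4 lies in tables of its own and was sequenced more deeply, so it was compared by direction and overlap only, without a test. From day 0 to day 4, 3 members lay above (Itga10, Itga5 and Itga4) and 4 below (Itga1, Itga11, Itgav and Itgb5) in every library, where the libraries of 43.3% of 12710 genes did not overlap, 21.1% above and 22.2% below. The same count between days 0 and 7 was 2 above and 4 below, the 6 called members, against 42.3% of genes, 16.9% above and 25.4% below. From day 4 to day 7, Itga10 lay above and Itga5, Itgav, Itgb1 and Itgb5 below, against 13.8% and 24.6% of genes (38.5% in either direction). By the means alone, 2 of 10 were higher at day 7 than at day 0 (37.8% of genes), 3 at day 4 than at day 0 (43.3%) and 2, Itga10 and Itga8, at day 7 than at day 4 (40.5%). The mean RPKM of 6 of the 10 members fell at both steps, as did that of 30.8% of genes, and that of Itga10 rose at both, as did that of 14.5%. The share of 6 in 10 is a description of a chosen list.

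The order of levels per length was the same at the top of each stage, with Itgb1, Itgb5, Itga11 and Itgav in that order and no overlap between neighbours. Itga10 moved from rank 8 of 10 at day 0 (1.67 ± 0.401 RPKM, n = 3), below Itga5, Itga1 and Itga8, to rank 6 at day 4 (11.4 ± 0.512) and to rank 5 at day 7 (16.4 ± 0.925), above Itga5 (12.5 ± 1.52). Itga1 moved from rank 6 to rank 8, and its day 4 and day 7 libraries overlapped those of its neighbour Itga8. Itga2 and Itga4, which were apart at day 0 (0.418 against 0.0756 RPKM), overlapped at days 4 and 7.

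Both classes of alpha chain had a lower summed level at day 7 than at day 0. In both, the shares of the single chains differed between these stages, except that of Itga2, which overlapped. The RPKM of the 4 collagen-binding chains summed to 81.7, 94.7 and 84.8 at day 0, to 69.4, 55.6 and 63.8 at day 4, and to 72.5, 54.1 and 61.4 at day 7. The RPKM of the 3 RGD-binding chains summed to 69.5, 74.1 and 60.0 at day 0, to 57.1, 47.1 and 56.9 at day 4, and to 44.9, 38.5 and 40.4 at day 7. In both classes every day 0 library was above every later one, and only in the sums of the RGD-binding chains was day 7 also below day 4. Collagen-binding chains made up 56.2% ± 2.29 (SD, n = 3) of the summed RPKM of these 7 chains at day 0, 54.0% ± 0.995 at day 4 and 60.2% ± 1.67 at day 7. The day 0 range (54.0 to 58.6%) and the day 7 range (58.4 to 61.8%) overlapped at their edge, and the share was not tested because it sums chosen genes. With CPM in place of RPKM, which weights long transcripts more, the shares were 41.7%, 41.0% and 47.5%.

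**Figure D4:**
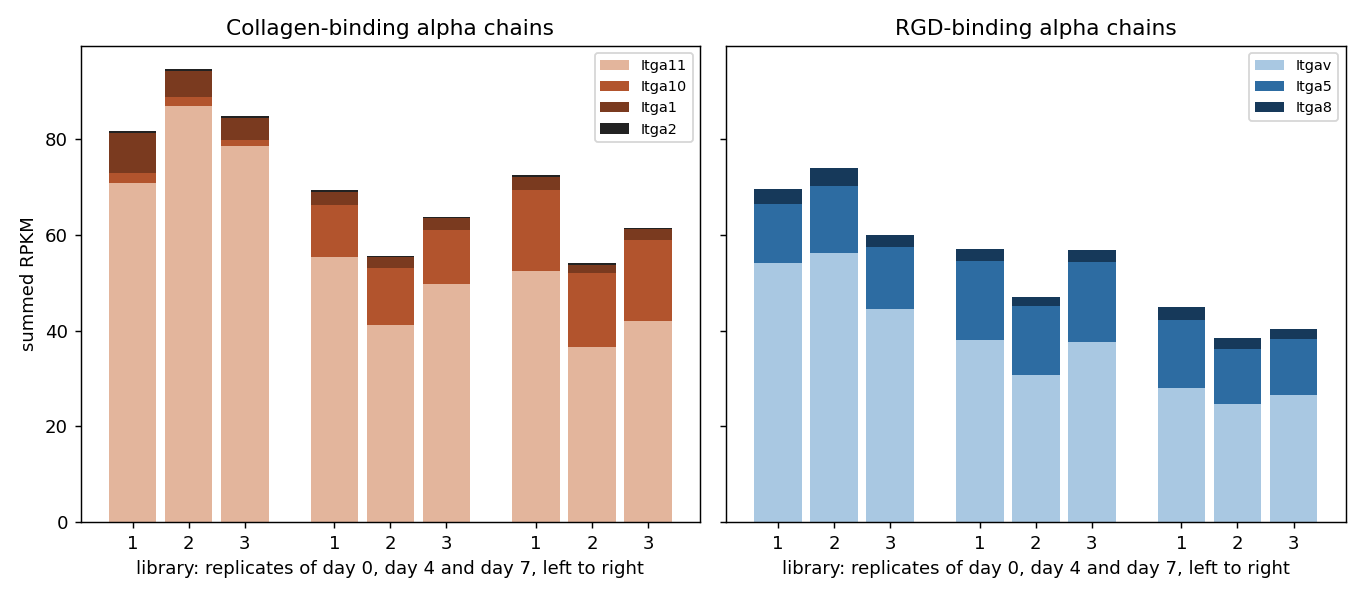
Summed RPKM (vertical axis, from 0) of the collagen-binding alpha chains (left) and the RGD-binding alpha chains (right) in each of the 9 libraries, stacked by gene. Itga10 is 1.93% of the collagen-binding sum at day 0 and 26.4% at day 7, and the mean RGD-binding sum is 67.9 RPKM at day 0 and 41.3 at day 7.

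Within the collagen-binding class, Itga11 made up 90.4% ± 3.14 of the sum at day 0, 77.3% ± 2.98 at day 4 and 69.5% ± 2.45 at day 7. Itga10 made up 1.93% ± 0.493, 18.3% ± 2.89 and 26.4% ± 2.62, and Itga1 7.19% ± 2.64, 3.96% ± 0.298 and 3.62% ± 0.164. The level of Itga11 was 35.8, 47.7 and 64.4 times that of Itga10 in the day 0 libraries, 5.10, 3.46 and 4.37 times at day 4, and 3.09, 2.39 and 2.49 times at day 7, so Itga11 remained the higher of the pair in every library. Without Itga10, the collagen-binding sum at day 7 was 0.542 of that at day 0, against 0.719 with it and 0.608 for the RGD-binding sum. Within the RGD-binding class, Itgav made up 76.03% ± 1.71, 66.1% ± 0.766 and 64.1% ± 1.62 of the sum, and Itga5 19.4% ± 1.76, 29.6% ± 1.09 and 30.2% ± 1.35.

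The levels of the beta chains were set against those of the alpha chains among the members that they pair with. Alpha chains outside the members were left out. Itgb1 had 2.01 ± 0.324 times the summed RPKM of the 8 alpha chains at day 0, 2.55 ± 0.272 times at day 4 and 2.58 ± 0.3 times at day 7, and the day 0 and day 7 ranges overlapped. Itgb5 had 3.71 ± 0.417 times the level of Itgav at day 0, 4.64 ± 0.513 times at day 4 and 5.12 ± 0.171 times at day 7, where every day 7 library stood above every day 0 library. These are ratios of transcript levels and say nothing of the number of receptors on the cell.

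Over the 9 libraries, the genes whose log2(CPM + 0.5) was most like that of Itga10 were Galnt3 (Pearson r = 0.998), a glycosyltransferase that protects the phosphate hormone FGF23, Col24a1 (0.997), a minor fibrillar collagen of bone, and Cgref1 (0.997), among 9100 genes whose CPM averaged 10 or more. Col24a1 had 0.350, 9.62 and 25.3 RPKM over the 3 stages. The genes most like Itgav were Samd5 (0.999), the calponin Cnn3 (0.995) and Zhx1 (0.995), and Samd5 had 9.72, 5.84 and 3.84 RPKM. These likenesses are descriptions over libraries that share their stages, and 291 and 327 genes had r above 0.95 with Itga10 and Itgav, respectively.

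The other 17 integrin chains had a far lower sum, 22.4 to 27.8 RPKM at day 0 against 576 to 713 for the 10 members. Of the member sum, 431 to 544 RPKM lay on the beta chains. The mean RPKM of Itgb3, 1 of the 17, was above those of Itga1, Itga2, Itga8 and Itga4 at every stage. Of the 17 chains, 11 were tested, 5 were higher and 2 lower at day 7, against 12.6% and 18.6% of all genes tested. The laminin receptor chains Itga7 (0.630 to 4.92 RPKM, log2 fold change 2.74, adjusted p = 7.83e-16), Itga6 (1.46 to 3.71 RPKM, 1.27) and Itgb4 (0.623 to 1.20 RPKM, 0.89) rose, and Itga3 did not pass (−0.18, adjusted p = 0.47, and 0.059 with quality weights). The leukocyte chains Itgb7 (1.10) and Itgam (0.85) rose beside the macrophage and leukocyte markers given above, and Itgb2 did not pass (0.51, adjusted p = 0.145). The call of Itgam was lost without day 7 replicate 1 (0.61, adjusted p = 0.137) and with all genes that had any reads (adjusted p = 0.0556). The tenascin and osteopontin receptor chain Itga9 fell from 6.81 to 3.52 RPKM (−0.94, adjusted p = 9.05e-06), and the platelet chain Itga2b fell (−0.84). Of the other partners of Itgav, Itgb3 had means of 9.10, 13.3 and 10.4 RPKM over the stages and did not pass (0.21, adjusted p = 0.352), nor did Itgb8 (−0.42, adjusted p = 0.133). Itgb3 passed in 3 of 18 fits, at 0.31 to 0.32. Itgb6, Itgad, Itgae, Itgal and Itgax were too low to be tested, and Itgb2l was listed at 0 in all libraries.

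Of the proteins these receptors bind, 4 of 6 fibrillar collagens were higher at day 7, against 12.6% of all genes tested. They were led by Col1a1, from 2158 to 5475 RPKM (log2 fold change 1.35, adjusted p = 1.78e-05, in 17 of 18 fits). Of 12 tested genes listed as ligands of the RGD-binding chains, 3 were higher and 5 lower, against 12.6% and 18.6% of all genes tested. The RGD motif itself was not looked for in them. The higher were Ibsp, Spp1 and Postn, and the lower were Fn1, Thbs1, Fbn1, Edil3 and Nid1. Fibronectin, Fn1, fell from 492 to 305 RPKM (−0.71, limma adjusted p = 0.0056), and vitronectin, Vtn, was too low to be tested. Ibsp, bone sialoprotein, rose from 3.82 to 2808 RPKM (9.43), and Fbn1, fibrillin, fell from 57.8 to 15.6 RPKM (−1.89). The integrin-independent collagen receptor Ddr1 was lower (−0.47, adjusted p = 0.0318) in 12 of 18 fits and, among others, lost its call without day 0 replicate 1, day 0 replicate 2, day 7 replicate 2 or day 7 replicate 3 (adjusted p from 0.0908 to 0.214), whereas Ddr2 did not pass (−0.28, adjusted p = 0.185).

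Of 29 genes that act on integrins inside the cell, 26 were tested, 4 were higher and 7 lower at day 7, against 12.6% and 18.6% of all genes tested. Parvb, which links integrin-linked kinase to actin, rose from 0.0949 to 0.838 RPKM (2.18), and the kinase Fyn from 20.5 to 46.7 RPKM (1.19). Parvb had only 4, 7 and 3 reads at day 0, and its log2 fold change ran from 1.16 to 3.29 over the 18 fits. The related Parva was more abundant and fell from 18.7 to 13.4 RPKM (−0.47, limma adjusted p = 0.0125 on the CPM as deposited). Tln2, the second talin, fell from 16.2 to 7.12 RPKM (−1.20), and zyxin, Zyx, fell from 51.2 to 27.1 RPKM (−0.91). The rise of the kindlin Fermt2 (0.40, adjusted p = 0.0438) and the fall of filamin, Flna (−0.55, adjusted p = 0.0173), were less firm, passing in 11 and 13 of 18 fits. Fermt2 lost its call without day 0 replicate 1 (adjusted p = 0.134) or without day 7 replicate 1 (0.223), 2 (0.125) or 3 (0.0706). Flna lost its call without day 0 replicate 1 (0.0928) or without day 7 replicate 1 (0.0606), 2 (0.0751) or 3 (0.0781). The number of higher genes among these chains and adhesion genes depended on the scaling, with 9 as deposited and 16 after median-of-ratios scaling. Over all 12712 genes, 1602 and 2827 were higher in these fits, respectively.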

How the data were processed

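RNA-seq of ribosomal RNA-depleted total RNA was analysed in 9 libraries, 3 each at days 0, 4 and 7. According to the methods and the processing notes, the authors aligned reads with STAR 2.0.4b to the mouse genome (GRCm38) and counted uniquely aligned reads per gene with featureCounts. The use of strand in counting is not given in the sources used here. The authors deposited CPM (scaled to each library's reads on genes) and RPKM (also divided by the length of the gene model), with days 0 and 7 in 1 table and day 4 in another. Repeated lines of a gene (276 and 273) were identical and were used once. In every library 100% of the CPM were whole multiples of 1 read, within 0.05 reads, so reads were recovered for the count models. Libraries of the same stage were further apart than counting error allows (chi-square over its degrees of freedom of 11.7 or more), so none was treated as a copy of another.

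Day 7 was compared with day 0 by limma 3.58.1 (R 4.3.3) with a variance trend on log2(CPM + 0.5) in the 12712 genes whose CPM averaged 1 or more, with a Benjamini-Hochberg adjusted p of 0.05 over all of them. The variance of a gene came mainly from the trend over all genes (42.9 prior degrees of freedom) and less from its own libraries (4). This limma test was also run on counts simulated with known changes, the same dispersion for every gene and no difference in composition between libraries. That setting leaves out differences such as those of Gm42418, so it was not used to judge the calls. The alternatives were pseudocounts of 0.1 and 1, genes with any reads, median-of-ratios scaling, the RPKM table, edgeR 4.0.16 and DESeq2 1.42.0 on recovered reads, voomWithQualityWeights (TMM and library weights, as the methods name), robust variances, the replicate number as a block, and leaving out each library. Rescaling to the reads on protein-coding genes and leaving Itga10 out of the collagen-binding sum were added after the data had been seen.

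The members, gene lists and tests were chosen with earlier results of these data known. Named are all 10 members, every other integrin chain tested, for each further ligand or adhesion list the called gene that rose most and the one that fell most, and the 3 genes most like the member of each class with the largest change. Acan, Spp1, Postn, Fn1, Thbs1, Edil3, Nid1, Vtn, Ddr2, Parva, Emcn, Tie1 and the integrin chains that were not tested were named after their values were seen. Likeness to the RGD-binding class was measured for Itgav. Positions are from GENCODE M21 (GRCm38). Analyses used Python 3.11.15 with pandas 2.3.3.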

Additional observations from a re-analysis of the deposited data

How the results depend on the processing

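Across all 18 fits of day 7 against day 0, 2 members were higher in each and 3 to 6 were lower, and Itga1, Itga10, Itga11, Itgav and Itga4 passed in every fit. Leaving out 1 library at a time gave 3 to 6 lower members. The 6 came without day 0 replicate 3, where 4696 of the 12712 genes were lower, against 2369 as deposited. Itga8 also passed with totals of protein-coding reads (−0.42, adjusted p = 0.0272) and with quality weights (−0.34, adjusted p = 0.0359). Those fits called 4045 and 2972 genes lower, with medians of −0.17 and −0.009 over all genes. The direction of Itga5 turned to 0.030 with median-of-ratios scaling, 0.033 with edgeR, 0.036 with DESeq2 and 0.061 with quality weights, and that of Itga3 to 0.059 with quality weights. The other integrin chains and adhesion genes higher at day 7 numbered 9 as deposited, 16 with median-of-ratios scaling, 17 with edgeR, 14 with DESeq2 and 17 with quality weights, and 6 to 10 when single libraries were left out. Of all 12712 genes, 1602, 2827, 2818, 2581 and 3148 were higher in these fits, in the same order. When single libraries were left out, 1174 to 1603 were higher. Members whose mean RPKM increased from day 4 to day 7 numbered 2, and 1 to 3 when single libraries were left out (1 without day 7 replicate 1 or without day 4 replicate 2). With CPM in place of RPKM the collagen-binding share was 41.7%, 41.0% and 47.5% at the 3 stages, and without Itga10 the collagen-binding ratio of day 7 to day 0 was 0.542. The causes of these differences were not tested beyond what each alternative changes.

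Of all genes, 3971 passed as deposited (40.3% of them higher at day 7), 5456 with median-of-ratios scaling (51.8%), 5803 with totals of protein-coding reads (30.3%), 6120 with quality weights (51.4%) and 6299 without day 0 replicate 3 (25.4%). Over all genes, the median of the log2 fold changes moved from −0.11 to −0.01 with median-of-ratios scaling. Same-numbered day 0 and day 7 libraries did not deviate together (correlations −0.02, −0.18 and −0.44), so the numbers were not taken to pair the samples, and no library correlated best with its own number. With the replicate block, 3413 genes passed, and of the members 2 were higher and 4 lower. Depth limits Itga4 and Itga2 most, which had as few as 7 and 11 reads in a library.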
